A study of Mus musculus with 9 samples.

Results

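Heat shock proteins and their cytosolic cochaperones were followed in stimulated mouse cortical neurons. The group has 34 genes, taken by name, and their measurements are all array probes whose RefSeq transcript belongs to one of these genes. Of the 34, 33 had at least 1 probe and 57 probes were found in all. Dnajb5, a J protein, had no matching probe, and Hspa12b, a divergent HSP70 protein, was well above background on only 1 Bic, 2 KCl and 1 control arrays, so 32 genes were tested among 14061. All 32 were well above background on all 9 arrays, so none entered the test through a single group.

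Neurons came from the cortex of C57bl/6 embryos at day 15 and were grown for 12 days before treatment. The Bic group received 25 µM bicuculline, which blocks GABA-A receptors and so releases network activity from inhibition, for 6 h. The KCl group received 50 mM potassium chloride, which depolarises the membrane, for 6 h. The control group was untreated, and each group had 3 arrays. No genotype differed between the groups, and each array carried 1 RNA sample with a single dye. The labels number the replicates without saying that they are separate cultures, and p-values then measure only the spread between these samples, which may be technical.

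Heat shock proteins hold unfolded proteins and return them to a working shape. HSP70 proteins bind exposed stretches of a client with the help of J proteins, which deliver clients, and of HSP110 and BAG proteins, which exchange the nucleotide that sets the grip. HSP90 proteins finish the folding of kinases and receptors with a set of cochaperones, and small heat shock proteins hold aggregating clients without using ATP. Some of these genes are low at rest and switched on by heat shock factor HSF1 through heat shock elements, repeats of nGAAn units in their promoters, whereas others are made at all times. Neurons are known for a high threshold for this heat shock response.

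Signal is given throughout as relative signal, the intensity of a probe divided by the 75th percentile of its array, and is not compared between genes because probes differ in brightness. Differences are log2 with the standard error of limma, and a gene was called higher or lower at an adjusted p under 0.05. The 75th percentile lay between 1586 and 3087 intensity units, 65.0% to 75.9% of the spots on an array stood well above background, and the number of saturated spots was 0. All 8 neuronal markers were well above background on all 9 arrays, with a summed relative signal of 113 to 122 in the Bic group, 122 to 128 in the KCl group and 117 to 126 in the control group. Markers of astrocytes (7 of 7), microglia (5 of 7), oligodendrocytes (6 of 7) and vascular cells or fibroblasts (5 of 7) were tested too, each well above background on all 9 arrays. In RNA of a whole culture, fewer cells of a type and less RNA per cell cannot be told apart. Of 8 activity genes, 6 rose and 2 fell in Bic cultures and 7 rose and 1 fell in KCl cultures. Of all genes tested, 17.4% were called higher and 27.0% lower in Bic cultures, and 35.8% and 36.0% in KCl cultures. Fos rose by log2 2.76 and 4.47 in Bic and KCl cultures, and Fosb, Npas4, Bdnf, Nr4a1 and Nptx2 also rose in both. Arc fell in Bic cultures (-0.65) and rose in KCl cultures (0.71), and Egr1 fell in both (-0.59 and -0.63).

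As scaled here, both treatments moved most of the chaperone genes, in both directions, and by a median size near that of all genes. In Bic cultures 13 of the 32 rose, 7 fell and 12 did not pass the test (62.5% called), where 44.4% of all genes tested were called, 17.4% higher and 27.0% lower. In KCl cultures 18 rose, 7 fell and 7 did not pass (78.1% called), where 71.8% of all genes were called, 35.8% higher and 36.0% lower. The 7 KCl falls include Dnajb1, taken by its brighter probe, and the mean of its probes rose instead (log2 0.26, adjusted p = 6.1e-05). The median log2 difference was 0.04 for the 32 in Bic cultures, beside -0.03 for all genes, and 0.26 in KCl cultures, beside 0.02. The median absolute difference was 0.16 for the 32, beside 0.15 for all genes, in Bic cultures, and 0.36, beside 0.32, in KCl cultures. The range ran from -0.68 for Hspb8 to 0.89 for Hspa1b in Bic cultures, and from -0.73 for Hspa12a to 1.26 for Hspa1b in KCl cultures.

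Other scalings of the arrays changed how many of these calls passed, each being made on the brightest probe of a gene. With normexp and the 75th percentile, 6 and 10 of the 32 were called in Bic and KCl cultures, beside 5.85% and 29.4% of all genes. Of the 20 Bic calls, 6 were made the same way in all 5 other scalings: Hspa1a, Hspa1b, Hspa4 and Bag3 higher, and Hspa12a and Hspb8 lower. Of the 25 KCl calls, 10 were: Hspa1a, Hspa1b, Hspa4, Hspa4l, Dnajb2, Dnajb4 and Bag3 higher, and Hspa12a, Hspa13 and Chordc1 lower. The direction of all 20 Bic calls and of 24 of the 25 KCl calls, all except Dnaja2, was the same in the 5 scalings. Within slides 1 and 2, which hold Bic and control arrays, all 20 Bic calls had the same sign as over all arrays. So had all 25 KCl calls within slide 2, which alone holds KCl and control arrays. The arrays that made the calls include these, so this agreement in sign is a weak check. For KCl it sets 2 KCl arrays against 1 control array. With slide as a block, 19 of the 20 Bic calls and 21 of the 25 KCl calls passed in the same direction. Scaling to the median spot or to the spike-in probes moved the median of all genes in KCl minus control to -0.14 and -0.20. The share of higher calls moved too, being 31.8% and 25.7% in these scalings where 5036 of 10099 calls were higher as reported, and of the 32 chaperone genes 12 then rose and 11 fell with the median, and 9 rose and 12 fell with the spike-in probes. For Bic, 2445 of 6245 calls were higher as reported, against 49.9% with spike-in scaling and 58.7% with normexp and the 75th percentile.

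**Figure D1:**
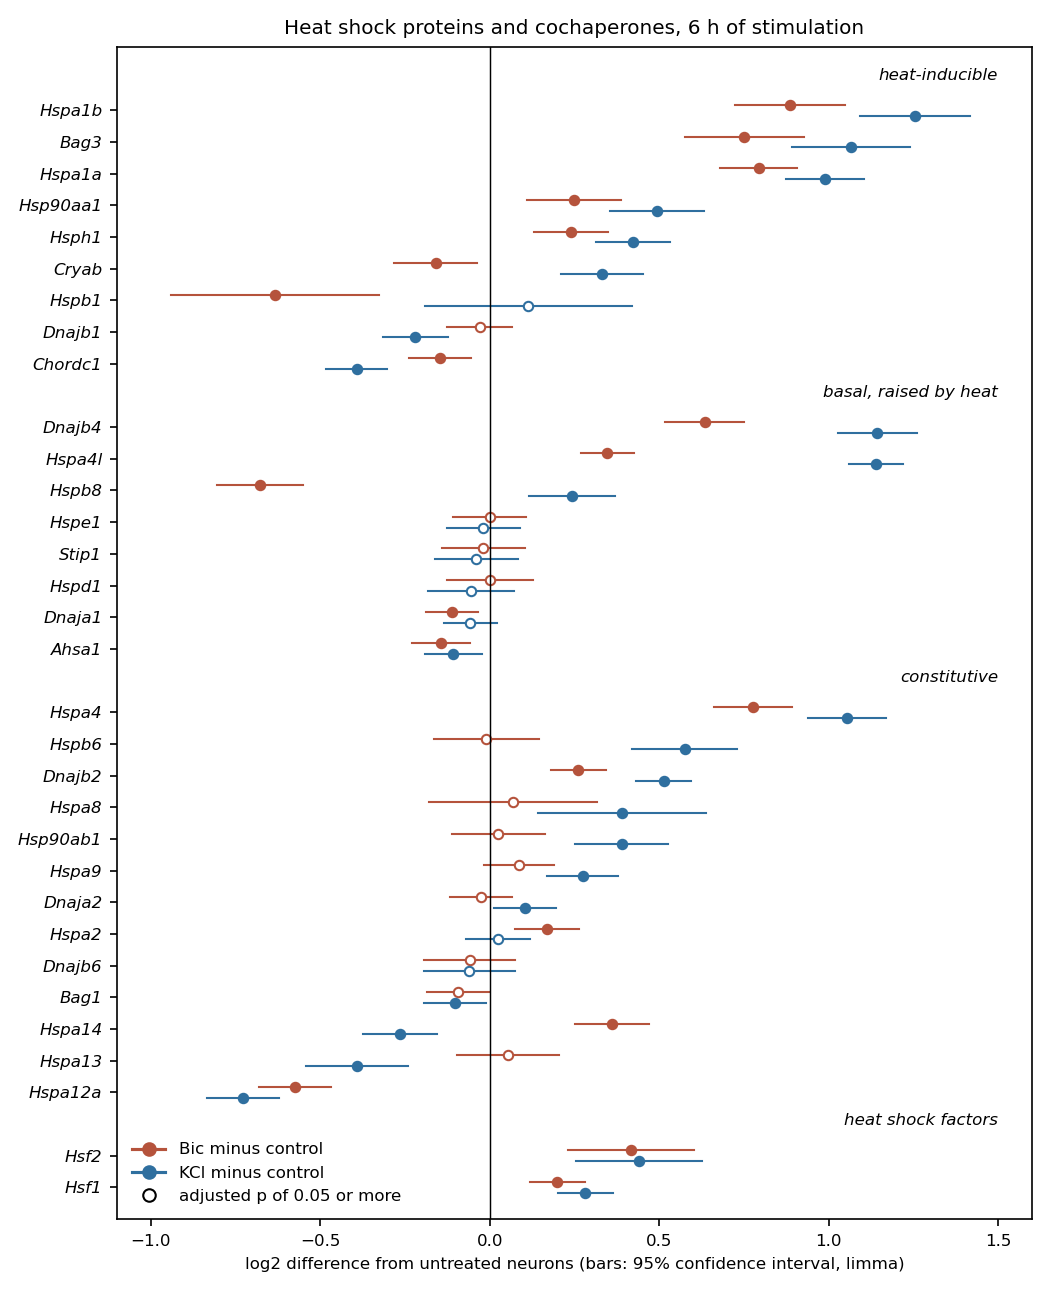
Log2 difference of the 32 tested genes from the control cultures, on the horizontal axis, for Bic (red) and KCl (blue), grouped as heat-inducible, basal and raised further by heat, constitutive, and heat shock factors. Bars are 95% confidence intervals from limma with 3 arrays per group and open points did not pass an adjusted p under 0.05; Hspa1b reached 0.89 and 1.26, and Hspb8 lay at -0.68 and 0.24.

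The stress-inducible HSP70 pair and its partner Bag3 rose in both treatments. Hspa1a and Hspa1b encode the nearly identical HSP70 proteins that heat switches on, and Bag3 hands HSP70 clients to autophagy together with small heat shock proteins. Hspa1a had a relative signal of 3.44, 3.58 and 3.51 in the Bic cultures, 3.74, 4.22 and 4.12 in the KCl cultures and 2.06, 2.06 and 1.96 in the control cultures. Every treated array was above every control array, the KCl arrays also lay above the Bic arrays, and the gain was 1.73-fold in Bic cultures (log2 0.79 ± 0.05, adjusted p = 1e-05) and 1.99-fold in KCl cultures (log2 0.99 ± 0.05, adjusted p = 8.6e-07). Hspa1b had 0.493, 0.508 and 0.484 in the Bic cultures, 0.580, 0.670 and 0.672 in the KCl cultures and 0.249, 0.284 and 0.272 in the control cultures. The 3 groups did not overlap, and Hspa1b rose 1.85-fold in Bic cultures (log2 0.89 ± 0.07, adjusted p = 3.6e-05) and 2.39-fold in KCl cultures (log2 1.26 ± 0.07, adjusted p = 1.6e-06), the largest KCl difference among the 32. Because the transcripts of the pair are nearly alike, their probes may share signal, which was not tested. Bag3 had 0.398, 0.451 and 0.484 in the Bic cultures, 0.514, 0.560 and 0.580 in the KCl cultures and 0.256, 0.268 and 0.265 in the control cultures. Its groups were also separate, with a 1.68-fold rise in Bic cultures (log2 0.75 ± 0.08, adjusted p = 0.00012) and a 2.09-fold rise in KCl cultures (log2 1.07 ± 0.08, adjusted p = 5.7e-06). Within the slide that held Bic and control arrays 1 and 2, Hspa1b was higher in Bic by log2 0.91, and within the slide that held Bic 3 and control 3 by 0.83. KCl arrays 1 and 2 exceeded the control array of their own slide by 1.20 for Hspa1b and 1.02 for Bag3.

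Promoters of the group were searched for heat shock elements in RefSeq windows of build GRCm38.p6, from 250 bases before to 50 after each start site, which were at hand for 27 of the 34 genes. The 3-unit element, GAANNTTCNNGAA or its reverse complement TTCNNGAANNTTC, was present in 198 of 32851 windows of all genes (0.603%) and in windows of 5 of the 27 genes: Hspd1, Hspe1, Dnajb6, Hsph1 and Chordc1. The 2-unit form GAANNTTC, which like TTCNNGAA reads the same on both strands and lies inside the 3-unit element, was in 7.86% of all windows and in 12 of the 27 genes, with 6 of 7 heat-inducible genes and 2 of 11 constitutive ones. The other 2-unit form, TTCNNGAA, was in 8.52% of all windows and in 6 of the 27 genes. Counted by gene, the shares over all genes were 0.662% for the 3-unit element, 9.04% for GAANNTTC and 9.60% for TTCNNGAA. The 3-unit element was in 2 of 7 heat-inducible genes, 1 of 11 constitutive ones and 2 of 8 present at rest and raised by heat. For TTCNNGAA these counts were 2, 1 and 3, and GAANNTTC was in 4 of the 8. A match describes letters and shows no binding. Windows of 6 genes are printed because they set genes that rose, fell or did not pass beside the letters they carry: Hspa1b, which rose, holds a single 2-unit match and is identical to Hspa1a at 296 of 300 positions; Hsph1 rose; Chordc1 fell; Hspe1 did not pass the test; Hspb8 fell in Bic and rose in KCl cultures; and Hspa4l, which rose, has no match. Capitals mark every match to these letters, and each sequence runs 5′ to 3′ on the strand of the gene.
Hspa1b, chr17:34959189-34959488, minus strand: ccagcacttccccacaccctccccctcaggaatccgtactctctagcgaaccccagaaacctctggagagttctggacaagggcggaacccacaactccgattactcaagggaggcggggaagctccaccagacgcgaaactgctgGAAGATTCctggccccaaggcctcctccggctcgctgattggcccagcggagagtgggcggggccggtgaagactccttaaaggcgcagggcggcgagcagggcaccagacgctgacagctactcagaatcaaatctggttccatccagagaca
Hsph1, chr5:149636266-149636565, minus strand: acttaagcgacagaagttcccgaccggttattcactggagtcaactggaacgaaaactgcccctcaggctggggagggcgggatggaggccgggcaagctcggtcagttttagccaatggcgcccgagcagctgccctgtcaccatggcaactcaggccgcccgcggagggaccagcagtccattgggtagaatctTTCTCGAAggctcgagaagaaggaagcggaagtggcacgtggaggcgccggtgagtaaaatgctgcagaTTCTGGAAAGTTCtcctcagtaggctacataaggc
Chordc1, chr9:18292017-18292316, plus strand: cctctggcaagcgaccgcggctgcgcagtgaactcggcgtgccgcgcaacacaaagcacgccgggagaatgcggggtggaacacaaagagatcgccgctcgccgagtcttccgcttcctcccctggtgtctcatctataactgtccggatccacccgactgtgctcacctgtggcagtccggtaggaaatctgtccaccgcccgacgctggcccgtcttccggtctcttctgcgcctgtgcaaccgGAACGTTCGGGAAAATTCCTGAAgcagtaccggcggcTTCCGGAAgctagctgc
Hspe1, chr1:55087898-55088197, plus strand: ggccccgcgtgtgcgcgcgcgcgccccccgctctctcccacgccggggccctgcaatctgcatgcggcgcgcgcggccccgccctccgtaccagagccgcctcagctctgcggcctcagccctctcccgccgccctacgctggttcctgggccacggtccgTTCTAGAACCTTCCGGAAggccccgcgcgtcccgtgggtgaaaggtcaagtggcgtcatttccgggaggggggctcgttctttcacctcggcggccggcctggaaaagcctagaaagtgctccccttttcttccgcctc
Hspb8, chr5:116422815-116423114, minus strand: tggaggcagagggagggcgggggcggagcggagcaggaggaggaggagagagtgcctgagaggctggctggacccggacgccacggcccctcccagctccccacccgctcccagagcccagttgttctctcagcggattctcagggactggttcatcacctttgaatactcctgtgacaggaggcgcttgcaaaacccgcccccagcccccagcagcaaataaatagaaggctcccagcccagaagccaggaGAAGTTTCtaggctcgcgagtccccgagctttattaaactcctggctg
Hspa4l, chr3:40745363-40745662, plus strand: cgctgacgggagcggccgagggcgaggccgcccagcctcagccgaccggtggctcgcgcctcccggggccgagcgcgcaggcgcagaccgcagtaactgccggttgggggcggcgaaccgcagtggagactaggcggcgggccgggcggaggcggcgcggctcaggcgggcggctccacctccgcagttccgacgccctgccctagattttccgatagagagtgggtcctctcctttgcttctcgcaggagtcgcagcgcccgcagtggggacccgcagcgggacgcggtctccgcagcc

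By their brightest probes, all 3 HSP110 genes, whose proteins are nucleotide exchange factors for HSP70, rose in both treatments. Of all genes tested, 17.4% rose in Bic and 35.8% in KCl cultures. Hspa4l had 5.24, 4.97 and 5.29 in the Bic cultures, 9.16, 8.73 and 8.94 in the KCl cultures and 4.04, 4.08 and 4.06 in the control cultures. The 3 groups stood far apart, and Hspa4l rose 1.27-fold in Bic cultures (log2 0.35 ± 0.03, adjusted p = 0.00011) and 2.20-fold in KCl cultures (log2 1.14 ± 0.03, adjusted p = 7.6e-08), the smallest adjusted p of the 32 genes. A second Hspa4l probe gave 0.35 and 1.04 in Bic and KCl cultures. The dimmest Hspa4l probe did not pass in Bic cultures (0.17, adjusted p = 0.082) and rose by 0.63 in KCl cultures (adjusted p = 8e-05). Hspa4, a relative made at all times, had 5.78, 5.85 and 5.44 in the Bic cultures, 6.59, 6.91 and 7.17 in the KCl cultures and 3.44, 3.36 and 3.15 in the control cultures. Its treated arrays were all above its control arrays, by 1.71-fold in Bic cultures (log2 0.78 ± 0.05, adjusted p = 1.1e-05) and 2.08-fold in KCl cultures (log2 1.05 ± 0.05, adjusted p = 6.1e-07). With only Bic and control arrays in the fit another Hspa4 probe was the brightest, and the Bic value was 0.18 (adjusted p = 0.061). On the control arrays that probe read 4.35, 4.80 and 4.58, above the probe used here. In KCl cultures it did not pass either (-0.04, adjusted p = 0.63), so the rise of Hspa4 depends on the probe taken. Hsph1, the heat-inducible HSP110 whose window above carries a 3-unit element, had 30.1, 30.6 and 29.9 in the Bic cultures, 33.0, 34 and 35.9 in the KCl cultures and 24.4, 27.0 and 25.4 in the control cultures. These smaller rises, 1.18-fold in Bic cultures (log2 0.24 ± 0.05, adjusted p = 0.0041) and 1.34-fold in KCl cultures (log2 0.42 ± 0.05, adjusted p = 8e-05), also left no overlap with the control arrays. The Bic call of Hsph1 was lost with median, spike-in and normexp 75th-percentile scaling and its KCl call with the last 2 of these (log2 0.19 and 0.23), and the Bic call of Hspa4l was lost with the last alone (0.34, adjusted p = 0.19).

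Of the HSP90 pair, the heat-inducible gene rose in both treatments and the constitutive one, by its brighter probe, passed only with KCl. Hsp90aa1 had 92.3, 93.9 and 93.7 in the Bic cultures, 109, 112 and 110.0 in the KCl cultures and 71.3, 79.7 and 85.4 in the control cultures. The control arrays were the most scattered, and still lay below all treated ones, with a 1.19-fold rise in Bic cultures (log2 0.25 ± 0.06, adjusted p = 0.011) and a 1.41-fold rise in KCl cultures (log2 0.49 ± 0.06, adjusted p = 0.00013). The Bic call of Hsp90aa1 was lost with spike-in scaling and both normexp settings (log2 0.16 to 0.25), and its KCl call with both normexp settings (0.30 and 0.13). Hsp90ab1 had 78.1, 68.8 and 69.5 in the Bic cultures, 91.6, 91.5 and 95.3 in the KCl cultures and 67.9, 75.1 and 69.6 in the control cultures. Bic and control arrays overlapped (log2 0.02, adjusted p = 0.78), whereas all KCl arrays were higher, by 1.31-fold (log2 0.39 ± 0.06, adjusted p = 0.0005). That rise lost its call in 4 of the 5 other scalings, with log2 0.04 to 0.18. The second probe of Hsp90ab1 gave 0.04 (adjusted p = 0.43) in KCl cultures and was lower in Bic cultures (-0.15, adjusted p = 0.034).

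**Figure D2:**
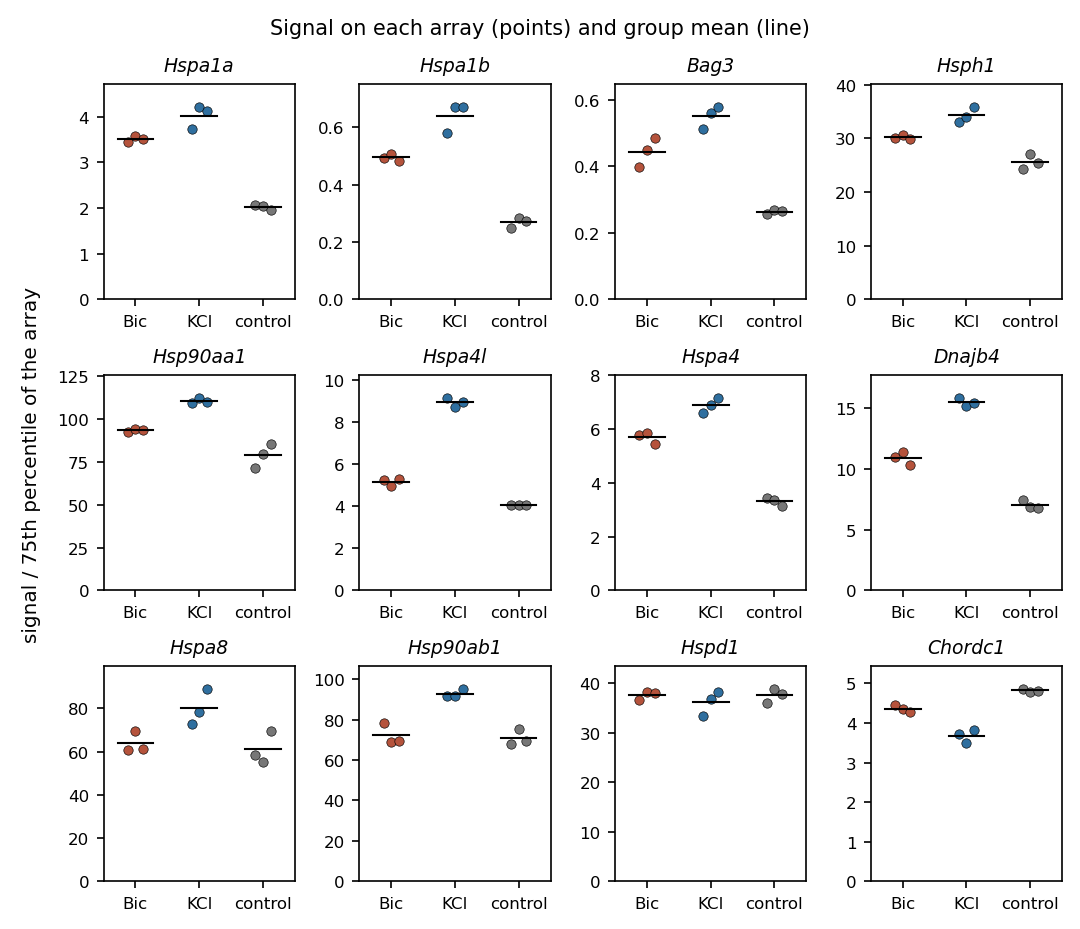
Relative signal (probe intensity over the 75th percentile of the array, linear axis from 0) of 12 chaperone genes on each of the 9 arrays, in Bic, KCl and control order, with the group mean as a line. Hspa1a, Hspa1b, Bag3, Hspa4 (by its brightest probe) and Hspa4l have 3 separate groups, the Hspd1 groups overlap, and Chordc1 runs downward, at 3.72, 3.48 and 3.82 in KCl cultures against 4.87, 4.79 and 4.80 in control cultures.

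Of the 3 HSP90 cochaperones in the group, Chordc1 and Ahsa1 were lower in both treatments and Stip1 did not pass. Chordc1 encodes a heat-inducible HSP90-binding protein, and its window above has 3 overlapping 3-unit matches. Its relative signal was 4.45, 4.34 and 4.27 in the Bic cultures, 3.72, 3.48 and 3.82 in the KCl cultures and 4.87, 4.79 and 4.80 in the control cultures. The KCl arrays were lowest and the control arrays highest, with differences of -0.39 ± 0.04 (adjusted p = 4.1e-05) for KCl and -0.15 ± 0.04 (adjusted p = 0.017) for Bic. Ahsa1, which speeds the ATPase of HSP90, was lower by smaller amounts, log2 -0.14 (adjusted p = 0.014) in Bic and -0.11 (adjusted p = 0.03) in KCl cultures. Stip1, the adaptor that joins HSP70 to HSP90, did not pass in Bic (log2 -0.02, 95% confidence interval -0.14 to 0.10) or in KCl cultures (-0.04, 95% confidence interval -0.16 to 0.08), although it was lower in KCl with median, spike-in and normexp quantile settings (-0.20, -0.27 and -0.17). The Bic call of Chordc1 was lost in 4 of the 5 other scalings (all but quantile normalization, adjusted p 0.063 to 0.71) and that of Ahsa1 in 3 (median, spike-in and normexp 75th percentile, 0.075 to 0.9). Leaving out Bic array 3 or control array 1 also ended the Bic call of Chordc1 (adjusted p = 0.06 and 0.054), and leaving out Bic array 3 ended that of Ahsa1 (0.051). The KCl call of Ahsa1 was lost without KCl array 2 or 3 or control array 1 or 2, at adjusted p between 0.059 and 0.091.

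J proteins, which bring clients to HSP70, split by gene. Dnajb4, which heat raises further from a basal level, had 11.0, 11.4 and 10.3 in the Bic cultures, 15.9, 15.2 and 15.5 in the KCl cultures and 7.44, 6.89 and 6.76 in the control cultures. No arrays overlapped between the groups, and the gain was 1.55-fold in Bic cultures (log2 0.63 ± 0.05, adjusted p = 3.6e-05) and 2.21-fold in KCl cultures (log2 1.14 ± 0.05, adjusted p = 4.5e-07). Dnajb2, a J protein enriched in neurons that passes HSP70 clients to the proteasome, had 4.25, 4.06 and 3.97 in the Bic cultures, 4.95, 4.79 and 4.88 in the KCl cultures and 3.43, 3.48 and 3.33 in the control cultures. This was a 1.20-fold rise in Bic cultures (log2 0.26 ± 0.04, adjusted p = 0.00062) and a 1.43-fold rise in KCl cultures (log2 0.51 ± 0.04, adjusted p = 4.9e-06), again without overlap. Dnajb1, the main heat-inducible J protein and a regulator of HSF1, had 10.4, 10.1 and 9.99 in the Bic cultures, 9.12, 9.02 and 8.63 in the KCl cultures and 10.5, 10.8 and 9.87 in the control cultures. The Bic arrays overlapped the control arrays (log2 -0.03 ± 0.04, adjusted p = 0.61) and the KCl arrays were all lower (log2 -0.22 ± 0.04, adjusted p = 0.0018), but a second Dnajb1 probe went the other way, as given with the single probes. By its brightest probe, Dnaja1 fell slightly in Bic cultures (log2 -0.11, adjusted p = 0.026) and gave -0.06 (adjusted p = 0.15) in KCl cultures. Its next brightest probe gave 0.005 (adjusted p = 0.93) in Bic and 0.06 (adjusted p = 0.2) in KCl cultures. The dimmest gave -0.14 (adjusted p = 0.089) in Bic cultures and fell in KCl cultures (-0.31, adjusted p = 0.0019). Dnaja2 gave -0.03 (adjusted p = 0.65) in Bic and rose by 0.10 (adjusted p = 0.045) in KCl cultures, where all 5 other scalings put it below 0. Dnajb6, a suppressor of aggregation of polyglutamine proteins, did not pass in either treatment, with log2 -0.06 (adjusted p = 0.46) in Bic and -0.06 (adjusted p = 0.37) in KCl cultures. Both Dnaja1 and Dnajb6 were called lower in KCl cultures in 4 of the 5 other scalings (all but normexp with the 75th percentile), at -0.22 to -0.29 and -0.16 to -0.29. The Bic call of Dnajb4 was lost with normexp and the 75th percentile, and that of Dnajb2 there and with spike-in scaling. The Dnaja1 call in Bic was lost in 3 scalings (adjusted p 0.13 to 0.92), with the replicate number as a block (adjusted p = 0.055) and without Bic array 1 or 3 or control array 2 or 3, at adjusted p between 0.06 and 0.08, and the Dnaja2 call in KCl was lost without Bic array 1 and without any single KCl or control array, at 0.056 to 0.12.

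Among the BAG proteins, Bag1, which releases HSP70 clients near the proteasome and is made at rest, did not share the rise of Bag3. Bag1 gave log2 -0.09 (adjusted p = 0.089) in Bic cultures and was lower in KCl cultures (-0.10, adjusted p = 0.045), a call that was lost on leaving out any 1 of 8 arrays (all except control 3), at adjusted p between 0.055 and 0.12.

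The HSP70 proteins made at all times went separate ways. Hspa8, the constitutive HSC70 of the cytosol, had 60.7, 69.7 and 61.3 in the Bic cultures, 72.7, 78.2 and 89.1 in the KCl cultures and 58.5, 55.4 and 69.5 in the control cultures. Control array 3 reached the Bic range, and Hspa8 did not pass in Bic (log2 0.07 ± 0.11, adjusted p = 0.66) but rose in KCl cultures (log2 0.39 ± 0.11, adjusted p = 0.012). Within the slide that held both groups, KCl arrays 1 and 2 exceeded control array 3 by only 0.12, and with slide as a block the value was 0.24 (adjusted p = 0.14). The KCl call of Hspa8 was lost in all 5 other scalings, at log2 0.04 to 0.23. Hspa12a, a divergent HSP70 protein enriched in brain, had 1.55, 1.51 and 1.48 in the Bic cultures, 1.38, 1.32 and 1.38 in the KCl cultures and 2.27, 2.37 and 2.12 in the control cultures. It fell in Bic (log2 -0.57 ± 0.05, adjusted p = 3.5e-05) and in KCl cultures (log2 -0.73 ± 0.05, adjusted p = 2.8e-06), and no treated array reached the control range. Hspa14, the ribosome-bound HSP70, moved in opposite directions, with 13.5, 12.4 and 13.2 in the Bic cultures, 8.21, 8.30 and 8.83 in the KCl cultures and 9.95, 9.93 and 10.6 in the control cultures. It rose in Bic (log2 0.36 ± 0.05, adjusted p = 0.00052) and fell in KCl cultures (log2 -0.27 ± 0.05, adjusted p = 0.0012), with no overlap between any pair of groups, and both calls were lost with normexp and the 75th percentile. Hspa13, a microsomal HSP70 with a secretory signal, gave 3.38, 3.58 and 3.43 in the Bic cultures, 2.74, 2.60 and 2.31 in the KCl cultures and 3.43, 3.17 and 3.41 in the control cultures. This left Bic overlapping control (log2 0.05 ± 0.06, adjusted p = 0.55) and KCl lower (log2 -0.39 ± 0.06, adjusted p = 0.00084). Hspa2, an HSP70 best known from the testis, rose by log2 0.17 (adjusted p = 0.011) in Bic cultures, a call lost in 3 of the 5 other scalings, and gave 0.02 (adjusted p = 0.62) in KCl cultures.

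Of the mitochondrial chaperones, Hspa9 rose in KCl cultures and the chaperonin pair did not pass. Hspa9, the HSP70 of the mitochondrial matrix, had 14.5, 14.4 and 15.1 in the Bic cultures, 16.4, 17.2 and 16.5 in the KCl cultures and 13.2, 14.7 and 13.6 in the control cultures. It was higher in KCl cultures (log2 0.27 ± 0.04, adjusted p = 0.00077) and did not pass in Bic cultures (log2 0.09 ± 0.04, adjusted p = 0.16), although without control array 2 it did (log2 0.13, adjusted p = 0.033). The KCl call of Hspa9 was lost in 4 of the 5 other scalings, at log2 0.05 to 0.18, and stayed with normexp and quantile normalization. Hspd1 and Hspe1 encode the HSP60 and HSP10 rings of the matrix chaperonin from a shared bidirectional promoter, the window printed for Hspe1. Hspd1 had 36.6, 38.2 and 38.0 in the Bic cultures, 33.4, 36.9 and 38.2 in the KCl cultures and 36.1, 38.9 and 37.7 in the control cultures. All groups overlapped, and the difference was 0.00 in Bic (95% confidence interval -0.12 to 0.13) and -0.06 in KCl cultures (95% confidence interval -0.18 to 0.07). Hspe1 had 8.49, 8.86 and 8.50 in the Bic cultures, 8.39, 8.25 and 8.88 in the KCl cultures and 8.21, 9.06 and 8.58 in the control cultures. It gave 0.00 in Bic (95% confidence interval -0.11 to 0.11) and -0.02 in KCl cultures (95% confidence interval -0.13 to 0.09). Other scalings, 4 of 5 for Hspd1 and 2 of 5 for Hspe1, called them lower in KCl cultures: with spike-in scaling Hspd1 was at log2 -0.28 (adjusted p = 0.024) and Hspe1 at -0.25 (adjusted p = 0.028).

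The 4 small heat shock genes differed between the 2 treatments. In Bic cultures 3 of 4 fell and none rose, with a median of -0.40, where 27.0% of all genes fell, and in KCl cultures 3 of 4 rose and none fell, with a median of 0.29, where 35.8% of all genes rose. Hspb8, the partner of Bag3 in chaperone-assisted autophagy, had 1.01, 1.18 and 1.09 in the Bic cultures, 2.11, 2.01 and 2.09 in the KCl cultures and 1.75, 1.74 and 1.76 in the control cultures. The control arrays sat in a narrow band between the lower Bic arrays (log2 -0.68 ± 0.05, adjusted p = 3.9e-05) and the higher KCl arrays (log2 0.24 ± 0.05, adjusted p = 0.0044). Hspb1, or HSP27, a heat-inducible chaperone of the actin cytoskeleton, had 0.164, 0.195 and 0.184 in the Bic cultures, 0.311, 0.297 and 0.303 in the KCl cultures and 0.238, 0.349 and 0.266 in the control cultures. Bic arrays lay below all others (log2 -0.63 ± 0.13, adjusted p = 0.0055), and the KCl arrays lay inside the control range (log2 0.11 ± 0.13, adjusted p = 0.46), which control array 2 widens: without it KCl was higher by 0.27 (adjusted p = 0.022). Cryab, the αB-crystallin that astrocytes and oligodendrocytes express strongly, had 3.97, 4.05 and 4.23 in the Bic cultures, 6.07, 5.30 and 5.87 in the KCl cultures and 4.51, 4.60 and 4.56 in the control cultures. It was higher in KCl cultures (log2 0.33 ± 0.05, adjusted p = 0.00063) and slightly lower in Bic cultures (log2 -0.16 ± 0.05, adjusted p = 0.039), where 6 of the 9 arrays each ended the call when left out (Bic 1 and 2, KCl 3 and all 3 control arrays, adjusted p 0.052 to 0.11). Hspb6, or HSP20, known from muscle, had 0.0944, 0.0962 and 0.0989 in the Bic cultures, 0.133, 0.159 and 0.144 in the KCl cultures and 0.101, 0.0923 and 0.0982 in the control cultures. It passed in KCl cultures (log2 0.57 ± 0.07, adjusted p = 0.0001) and not in Bic cultures (log2 -0.01 ± 0.07, adjusted p = 0.92).

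KCl exceeded Bic for all 4 small heat shock genes, by log2 0.92 (adjusted p = 4.9e-06) for Hspb8, 0.75 (adjusted p = 0.0015) for Hspb1, 0.58 (adjusted p = 0.00014) for Hspb6 and 0.49 (adjusted p = 9.7e-05) for Cryab, and the sign held in all 5 other scalings. The Bic call of Hspb8 passed in each of those scalings, and within the 2 slides with Bic and control arrays the difference was -0.68 and -0.69, but its KCl call was lost with the median, spike-in and normexp 75th-percentile ones (log2 0.08, 0.015 and 0.19). The KCl call of Cryab was lost in the same 3 (0.17, 0.10 and 0.22), and those of Hspb6 in KCl (adjusted p = 0.061) and Hspb1 in Bic (0.25) were lost with normexp and the 75th percentile. The Bic call of Cryab was lost in 4 of the 5 other scalings (adjusted p 0.053 to 0.6) and with the replicate number as a block (adjusted p = 0.058). For cells other than neurons, summed signals of markers were higher with KCl too, though not every marker rose. For 5 vascular and fibroblast markers the summed relative signal was 12.5 to 14.5 in the Bic group, 29.1 to 33.4 in the KCl group and 13.2 to 14.5 in the control group. For 7 astrocyte markers it was 87.5 to 90.1 in the Bic group, 102.0 to 107 in the KCl group and 88.1 to 95.5 in the control group. For 6 oligodendrocyte markers it was 11.2 to 12.0 in the Bic group, 13.6 to 13.9 in the KCl group and 12.3 to 12.5 in the control group, and for 5 microglial markers 1.82 to 2.72 in the Bic group, 2.74 to 4.02 in the KCl group and 2.23 to 2.36 in the control group. Taken singly in KCl cultures, 3 vascular and fibroblast markers rose and 1 fell, and 4 astrocyte markers rose and 1 fell. Of the oligodendrocyte markers 4 rose and 2 fell, of the microglial ones 3 rose and 0 fell, and of 8 neuronal ones 4 rose and 1 fell. The shares called were 80%, 71.4%, 100%, 60% and 62.5% in that order, beside 71.8% of all genes. Pecam1, Cldn5, Mog, Itgam and Cd68, defining markers of the cells other than neurons, were not among the genes tested. The part of those cells in the small heat shock results was not tested.

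**Figure D3:**
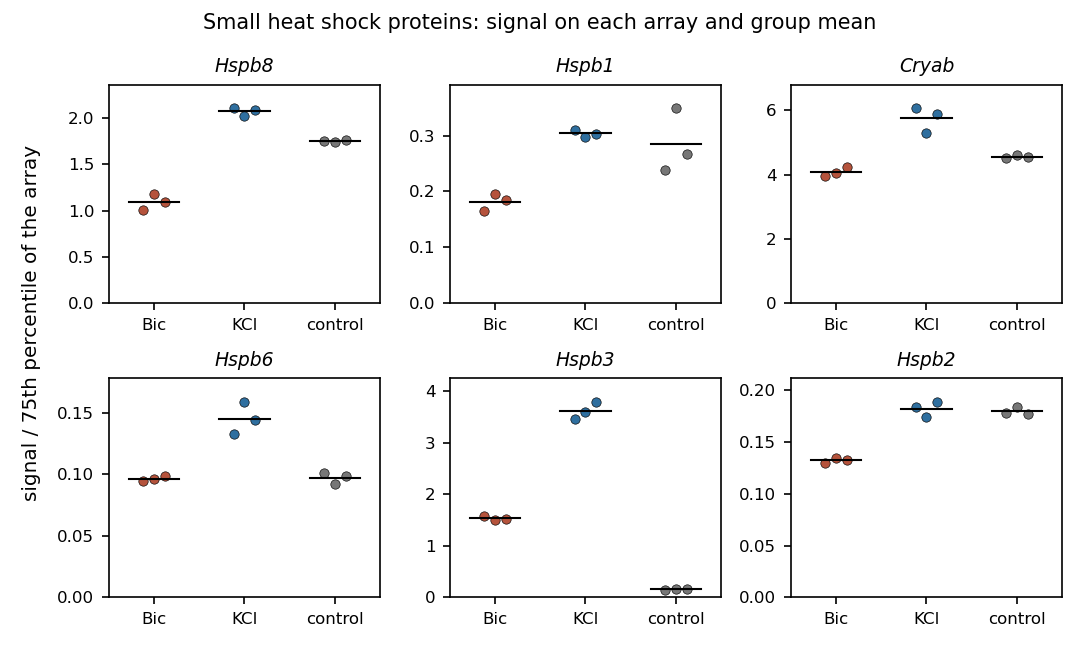
Relative signal (linear axis from 0) of the 4 small heat shock genes of the group and of Hspb3 and Hspb2, which are outside it, on each of the 9 arrays, with group means as lines. Hspb8, Hspb1, Cryab and Hspb2 are lowest in the Bic group, and Hspb3 is 3.45, 3.60 and 3.79 in the KCl group against 0.147, 0.170 and 0.157 in the control group.

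By their brighter probes, both heat shock factors rose modestly. Hsf1, the factor that activates the inducible genes after heat, had 3.30, 3.14 and 3.11 in the Bic cultures, 3.27, 3.41 and 3.45 in the KCl cultures and 2.77, 2.81 and 2.74 in the control cultures. All treated arrays were above all control arrays, in Bic (log2 0.20 ± 0.04, adjusted p = 0.0025) and in KCl cultures (log2 0.28 ± 0.04, adjusted p = 0.00016), and both calls were lost in 3 of the 5 other scalings. The second Hsf1 probe did not pass in Bic cultures (0.12, adjusted p = 0.2) and rose in KCl cultures (0.18, adjusted p = 0.048). Hsf2, a factor of development and of the prolonged response, had 0.0592, 0.0516 and 0.0567 in the Bic cultures, 0.0507, 0.0592 and 0.0606 in the KCl cultures and 0.0409, 0.0403 and 0.0441 in the control cultures. It rose in Bic (log2 0.42 ± 0.08, adjusted p = 0.0038) and in KCl cultures (log2 0.44 ± 0.08, adjusted p = 0.0014), and the second Hsf2 probe gave 0.36 and 0.34. The KCl call of Hsf2 was lost in 4 of the 5 other scalings (all but the median, log2 0.13 to 1.18) and its Bic call with normexp and the 75th percentile (0.23).

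Set by class, both the heat-inducible and the constitutive genes included rises and falls. Of 9 heat-inducible genes, 5 rose and 3 fell in Bic cultures (median 0.24) and 6 rose and 2 fell in KCl cultures (median 0.42), the falls being those of Chordc1 and of the brighter Dnajb1 probe. Of the 13 constitutive genes tested, 4 rose and 1 fell in Bic cultures (median 0.05) and 7 rose and 4 fell in KCl cultures (median 0.10). The share called in KCl cultures was 88.9% of the inducible and 84.6% of the constitutive genes, beside 71.8% of all genes, and in Bic cultures 88.9% and 38.5%, beside 44.4%. The 8 genes that are present at rest and raised by heat gave 2 rises and 3 falls in Bic cultures (median -0.01) and 3 rises and 1 fall in KCl cultures (median -0.03). The inducible median stayed above 0 in every scaling, at 0.16 to 0.24 in Bic and 0.19 to 0.42 in KCl cultures, whereas the constitutive KCl median ran from -0.12 to 0.10 and was below 0 with 3 of the 5 other scalings. The KCl median of all genes moved too, to -0.14, -0.06, -0.20 and -0.05 with median, quantile, spike-in and normexp quantile scaling. The constitutive median lay above these, at -0.06, 0.01, -0.12 and 0.04. With normexp and the 75th percentile the constitutive median was -0.04, below the 0.08 of all genes. Within the inducible class the KCl differences ranged from -0.39 for Chordc1 to 1.26 for Hspa1b, and within the constitutive class from -0.73 for Hspa12a to 1.05 for Hspa4 (by its brightest probe).

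KCl and Bic were also set against each other directly, because the comparisons above share the control arrays. Here 17 of the 32 were higher and 6 lower in KCl, where 64.9% of all genes were called, 36.1% higher and 28.8% lower, with a median of 0.16 beside 0.07 for all genes. Hspb8 and Hspa4l differed most upward (log2 0.92 and 0.79) and Hspa14 most downward (-0.63, adjusted p = 1.6e-05). Dnajb4 (0.51, adjusted p = 6.5e-05), Hspa1b (0.37, adjusted p = 0.0023) and Bag3 (0.31, adjusted p = 0.007) were higher in KCl, as was Hspa1a by 0.20 (adjusted p = 0.0089), and Hspa1a turned to -0.03 under spike-in scaling. Hspa13 (-0.44, adjusted p = 0.00055), Chordc1 (-0.25, adjusted p = 0.00085), the brighter probe of Dnajb1 (-0.19, adjusted p = 0.0047), Hspa12a (-0.15, adjusted p = 0.018) and Hspa2 (-0.15, adjusted p = 0.014) were lower in KCl. The heat shock factors did not pass, with 0.08 (adjusted p = 0.07) for Hsf1 and 0.02 (adjusted p = 0.81) for Hsf2, although Hsf1 passed without Bic array 1 (0.11, adjusted p = 0.035) or KCl array 1 (0.11, adjusted p = 0.04). In all 5 other scalings 5 of the 23 calls were made the same way (Hspa4l, Hspb1 and Hspb8 higher, Hspa13 and Hspa14 lower) and 18 kept their direction, and with slide as a block 13 passed. The median of all genes in this comparison moved to -0.05 with median and -0.16 with spike-in scaling, and the 5077 higher of 9124 calls became 33.9% and 19.5% of the calls. Of the 32 genes, 8 were then higher and 6 lower with median scaling, and 5 higher and 9 lower with spike-in scaling. Quantile normalization gave 43.0% of calls higher, or 43.7% after normexp background correction, and normexp followed by 75th-percentile scaling gave 45.2%. Leaving out single arrays ended the calls of Hspa8 (without Bic 1 or 3 or KCl 2 or 3, adjusted p 0.057 to 0.094), Hspa12a (without Bic 1 or KCl 2, 0.061 and 0.059) and Dnaja2 (without Bic 1 or 3 or KCl 1 or 3, 0.051 to 0.073).

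Several genes had more than 1 probe, and their probes did not always go the same way. Of 19 such genes, all probes shared a sign in 14 for Bic and in 14 for KCl, and all were called in one direction in 5 and 10. In KCl minus Bic these counts were 13 and 9, and probes of Dnajb1 and Hspa4 were called in opposite directions. For single probes the test ran over all 20990 probes kept. Hspa1a and Hspa1b had 2 probes each that rose in both treatments, with 0.77 and 0.94 for the second Hspa1a probe and 0.73 and 1.29 for the second Hspa1b probe in Bic and KCl cultures. Dnajb4 had a second probe, on another RefSeq transcript, with 0.84 and 1.46. The second Dnajb1 probe rose, by 0.50 in Bic and 0.73 in KCl cultures, against -0.03 and -0.22 for the brighter one, so no direction can be given for Dnajb1. Hspa4 had probes with 0.78, 0.41 and 0.18 in Bic cultures and 1.05, 0.70 and -0.04 in KCl cultures, and the one at 0.18 and -0.04 did not pass in either. In KCl minus Bic these Hspa4 probes gave 0.28 (adjusted p = 0.0018), 0.29 (adjusted p = 0.0061) and -0.22 (adjusted p = 0.022), so the count of genes higher in KCl than in Bic takes Hspa4 by its brightest probe, and the mean of its probes did not pass there. Of 3 Dnajb6 probes, each on a different RefSeq transcript, 1 rose in both treatments (0.22 and 0.39), the others not. The second Hspa13 probe rose in Bic cultures (0.16) and gave 0.00 in KCl cultures, where the brighter one fell. Hspd1 had a second probe that fell in KCl cultures (-0.24, adjusted p = 0.011), against -0.06 for the brighter one. Which part of each transcript a probe covers was not analysed here.

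**Figure D4:**
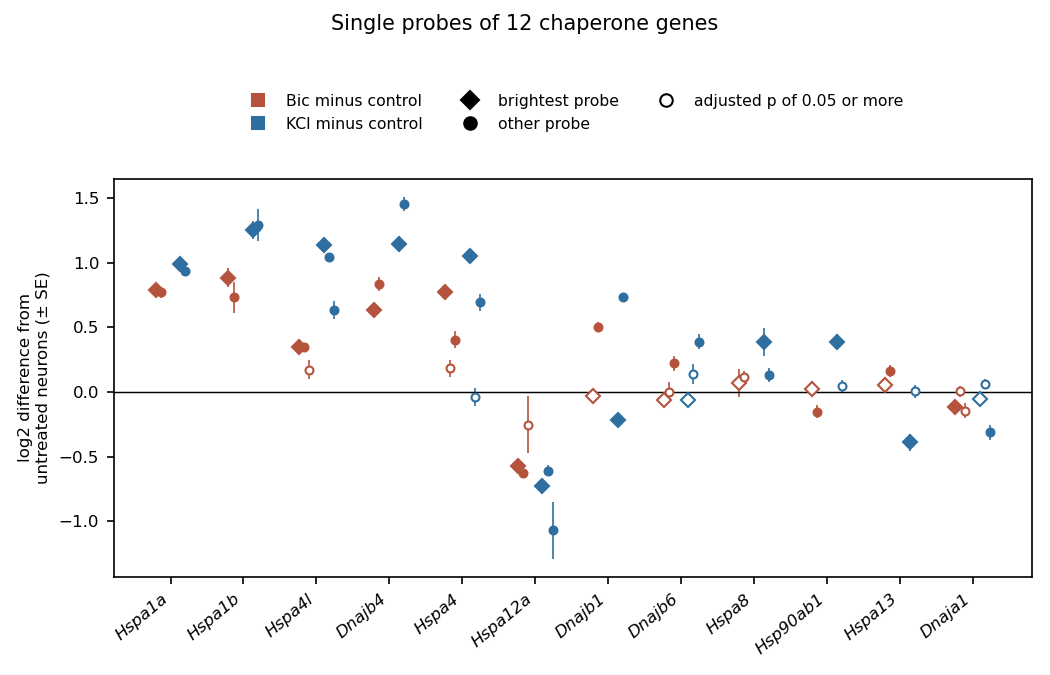
Log2 difference from the control cultures (vertical axis, bars are standard errors) for every kept probe of 12 genes, with Bic in red and KCl in blue, diamonds for the brightest probe and open symbols for an adjusted p of 0.05 or more. The probes of Hspa1a, Hspa1b and Dnajb4 lie together above 0, while those of Dnajb1 lie on both sides of it, at 0.50 and -0.03 for Bic and 0.73 and -0.22 for KCl.

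The wider chaperone network was read from 5 lists with 86 other genes, of which 79 were tested. In Bic cultures 15 rose and 18 fell (median 0.00), and in KCl cultures 30 rose and 30 fell (median 0.02). The shares called, 41.8% and 75.9%, were near the 44.4% and 71.8% of all genes. Of 28 other J proteins tested, 5 rose and 10 fell in Bic and 6 rose and 15 fell in KCl cultures. These are 17.9% higher and 35.7% lower in Bic cultures, beside 17.4% and 27.0% of all genes. In KCl cultures they are 21.4% and 53.6%, beside 35.8% and 36.0% of all genes. Dnajc12, a J protein that assists aromatic amino acid hydroxylases, rose by 0.79 in Bic and 0.58 in KCl cultures, and Dnajc13, of endosomes, fell (-0.51 and -0.67). Dnajc2, of the ribosome, gave -0.14 (adjusted p = 0.065) in Bic and fell in KCl cultures (-0.81), and Dnajc28 fell in both (-0.17 and -0.74). Of 19 further HSP90 and HSP70 cochaperones, 4 rose and 2 fell in Bic and 10 rose and 6 fell in KCl cultures. The shares called were 31.6% and 84.2%, beside 44.4% and 71.8% of all genes. Unc45a, a myosin and HSP90 cochaperone, rose (0.20 and 0.92), as did the kinase cochaperone Cdc37l1 (0.42 and 0.76) and Bag2 (0.25 and 0.41). Fkbp5, the glucocorticoid-responsive cochaperone of steroid receptors, gave -0.18 (adjusted p = 0.082) in Bic and fell in KCl cultures (-0.77).

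The cytosolic chaperonin CCT with prefoldin, which folds actin and tubulin, had 14 genes tested, with 2 higher and 4 lower in Bic and 5 higher and 3 lower in KCl cultures, or 42.9% and 57.1% called beside 44.4% and 71.8% of all genes. The prefoldin subunits Pfdn4 (0.30 and 0.10) and Pfdn2 (0.29 and 0.52) rose in Bic and KCl cultures, although Pfdn4 turned to -0.06 and -0.12 in KCl with median and spike-in scaling. Cct6a fell in KCl cultures (-0.29) and gave -0.08 (adjusted p = 0.29) in Bic cultures. Of 8 mitochondrial folding genes, 1 rose in Bic and 2 rose and 4 fell in KCl cultures, or 12.5% and 75% called. Lonp1, a matrix protease, was slightly higher in Bic (0.11) and in KCl cultures (0.08), the second value being below 0 in all 5 other scalings, whereas the iron-sulphur cochaperone Hscb (-0.49) and Clpx (-0.37) fell in KCl cultures and gave -0.10 (adjusted p = 0.054) and -0.01 (adjusted p = 0.9) in Bic cultures.

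Outside the 34 genes, 1 small heat shock gene moved far more than any of them. Hspb3, a small heat shock protein known from muscle and motor neurons, had 1.57, 1.51 and 1.53 in the Bic cultures, 3.45, 3.60 and 3.79 in the KCl cultures and 0.147, 0.170 and 0.157 in the control cultures. That is 9.72-fold in Bic (log2 3.28 ± 0.06, adjusted p = 2.3e-08) and 22.8-fold in KCl cultures (log2 4.51 ± 0.06, adjusted p = 2.5e-09), with KCl above Bic by 1.23, and it passed in every scaling. Hspb2, which lies head to head with Cryab in the genome, had 0.129, 0.135 and 0.132 in the Bic cultures, 0.184, 0.174 and 0.189 in the KCl cultures and 0.178, 0.184 and 0.177 in the control cultures. Like Hspb8 and Hspb1 it fell in Bic cultures (log2 -0.44 ± 0.04, adjusted p = 5.7e-05), and it did not pass in KCl cultures (log2 0.02 ± 0.04, adjusted p = 0.68). Dedd2, from the list of heat shock factor partners, rose by 0.29 in Bic and 0.78 in KCl cultures.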

How the data were processed

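Expression was measured on 9 Agilent 1-colour mouse arrays. The authors deposited the scanner software's output, and its processed intensity, already corrected for background per the file headers and not scaled between arrays, was used. The software was Agilent Feature Extraction, with release 10.7.3.1 in those headers and 10.5.1.1 in the submitters' processing notes. The median intensity of each spot and its local background, deposited in the same scanner output, served for the normexp alternatives (offset 50). The deposited series table held the same intensities for each of 45018 features and added nothing.

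Each log2 intensity was set against the array's 75th percentile (43379 spots, controls aside), outlier spots were left out, and spots of a probe were averaged. This left 39 values missing among those used for genes. RefSeq identifiers gave probes their symbols (annotation of GRCm38.p6; 26888 of 41174 probes, 18327 genes). A probe was kept if all arrays of some group showed it well above background and no group had fewer than 2 measured arrays, and the brightest of the 20990 kept stood for each of 14061 genes. limma 3.58.1 in R 4.3.3 fitted all 9 arrays together (6 residual degrees of freedom, prior 1.76), two-sided, with Benjamini-Hochberg adjustment over all genes within each of 3 comparisons. All adjusted p-values and standard errors come from this fit, with 3 arrays per group. The number of arrays limits the precision, and the median replicate SD was 0.064 (log2). The steps were tested on simulated data.

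Slides are those in the file headers: Bic 1 and 2 with control 1 and 2, KCl 1 and 2 with Bic 3 and control 3, and KCl 3 alone. The principal components held 65.3% and 16.8% of the variance. Same-numbered Bic and control arrays deviated together (r = 0.40, 0.26 and 0.74 for numbers 1 to 3, pairing taken from the labels), so the fit with the number as a block is given where it changes a Bic call. Bic 2 correlated more with a control array of another number (r = 0.33). Bic 3 and control 3 share a slide apart from numbers 1 and 2, so pairing and slide cannot be told apart there. Numbers did not pair KCl arrays with control or Bic arrays (r between -0.57 and -0.09).

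The members and lists were chosen with earlier results of these data known. All 34 genes are named, with, from each network list and each comparison against control, the 2 largest differences among calls whose arrays do not overlap. The activity and cell type genes served as checks. Classes (heat-inducible, basal and raised by heat, constitutive) follow general knowledge of the genes. Other scalings were the median spot, quantile normalization, 7 spike-in probes, and normexp with either the 75th percentile or quantiles. Other filters, probe averaging, priors, blocks, fits of 2 groups only and leaving out each array were also tried.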

Additional observations from a re-analysis of the deposited data

How the results depend on the processing

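Counts of all genes called moved with the scaling: for Bic minus control 6245 became 2467 with spike-in scaling and 823 with normexp and the 75th percentile, which also gave 4135 in place of 10099 for KCl minus control and 2434 in place of 9124 for KCl minus Bic. Of the 32 chaperone genes, those called went from 20 to 13 (median scaling), 11 (spike-in) and 6 (normexp with the 75th percentile) for Bic minus control, from 25 to 10 (normexp with the 75th percentile) for KCl minus control, and from 23 to 14, 14, 7 and, with slide as a block, 13 for KCl minus Bic. Their median for Bic minus control, 0.04, became 0.0034 with median scaling, 0.0050 with quantile normalization and 0.078 with the mean of probes. For KCl minus control, 0.26 became 0.099 with median, 0.055 with quantile, 0.030 with spike-in and 0.18 and 0.073 with normexp and the 75th percentile or quantiles, and 0.24 with the mean of probes and with slide as a block. For KCl minus Bic, 0.16 became 0.033, -0.023, -0.072, 0.0014 and -0.018 in the same 5 scalings, 0.18 without a filter and 0.12 with the mean of probes. Leaving out 1 array gave 5281 to 6254, 9232 to 9972 and 8208 to 8980 genes called, 17 to 20, 22 to 24 and 21 to 23 of the 32, and medians of 0.018 to 0.056, 0.24 to 0.28 and 0.14 to 0.17 for Bic minus control, KCl minus control and KCl minus Bic, the lowest Bic median, 0.018, being without Bic 2. With the replicate block 18, 24 and 23 of the 32 passed, and with the block in fits of only the 2 groups compared, an alternative chosen after seeing the data, 20, 22 and 22. Among Bic calls the block ended those of Dnaja1 (adjusted p = 0.055) and Cryab and no other of the 32. For KCl the numbers do not pair the arrays, and the block moved no count of calls by over 1.5 times.

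Signs turned as follows. With the mean of probes Dnajb1 was 0.24 (Bic), 0.26 (KCl) and 0.020 (KCl minus Bic), and Dnajb6 0.16 (KCl). In KCl minus control, Dnaja2 was -0.056 with median, -0.062 with quantile, -0.12 with spike-in, and -0.037 and -0.012 with normexp and the 75th percentile or quantiles. Lonp1 was -0.079, -0.060, -0.15, -0.12 and -0.089 in these 5, and Pfdn4 -0.055 with median and -0.12 with spike-in scaling. In KCl minus Bic, spike-in scaling gave -0.032 for Hspa1a, -0.041 for Hspa9, -0.046 for Hsph1, -0.10 for Dnaja2 and -0.063 for Bag2. Quantile normalization gave -0.018 for Hsp90aa1, -0.028 for Hsph1, -0.13 for Dnaja1, -0.039 for Dnaja2 and -0.14 for Ahsa1. Normexp with quantiles gave -0.025 for Hsp90aa1, -0.062 for Hsph1, -0.13 for Dnaja1, -0.011 for Dnaja2 and -0.12 for Ahsa1. Normexp with the 75th percentile gave -0.052 for Hsph1, -0.042 for Dnaja2, -0.0094 for Pfdn2, 0.14 for Fkbp5 and 0.21 for Pfdn4. The cause was not tested. Of the values for single genes under an alternative, 3606 kept their direction and their side of the threshold, 239 lost the call, 52 gained one and 36 turned. Signal near background limits Hspa12b, which was not tested.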
